A study of Mus musculus with 10 samples.

Results

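The nuclear genes for subunits of the 5 complexes of oxidative phosphorylation (OXPHOS) were followed in livers whose hepatocytes had lost histone H3.3. Members were chosen by gene name (Nduf, Sdh, Uqcr, Cox4 to Cox8 and Atp5) with a minimum of 100 counts summed over the 10 libraries. The pattern matched 97 names, of which 8 names ending in ps were left out and 7 had fewer than 100 counts. The remaining 82 of 55421 gene identifiers were 39 of complex I, 4 of complex II, 8 of complex III, 14 of complex IV and 17 of complex V, and all 82 were tested. They include 3 processed pseudogenes, the copy genes Ndufb4c, Ndufs6b and Cox6c2, which are counted with their complexes. Cox6b2 (112 counts in all) and Ndufb4c (158) were just inside the minimum, whereas Ndufa11b (51) and Cox4i2 (30) were just outside it. The rule tested no difference between groups, but 1 member, Cox6b2, reached the minimum only through the KO libraries, with 28 counts in the controls and 84 in KO. Its values are therefore given as a description with no test, and it is included in the counts of higher members below.

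The data were poly(A) RNA-seq of whole liver from male mice (10 libraries) that received an adeno-associated virus (AAV8) at 6 months of age and were examined 3 weeks later. The H3.3 KO group was 4 mice with floxed alleles of both H3.3 genes (H3f3afl/fl_H3f3bfl/fl) given AAV8 Tbg-Cre, in which the hepatocyte promoter Tbg drives Cre recombinase. The 3 WT Cre controls were wild-type mice given the same virus, and the 3 MCS controls were H3f3afl/fl_H3f3bfl/fl mice given AAV8 Tbg-MCS, which carries no Cre. All animals therefore carried the virus, the MCS controls shared the alleles of the KO group and the WT Cre controls shared its Cre. Because Tbg acts in hepatocytes, the other liver cells should have kept both genes, which bulk RNA cannot show by cell type. In bulk tissue, fewer cells of one type and less RNA per cell cannot be told apart. The columns of the tables name the controls by number only, and WT Cre was told from MCS by the number in the library names. Values for one kind of control rest on that match. Those for the 6 controls pooled do not need it.

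Oxidative phosphorylation is the route by which mitochondria turn the energy of NADH and succinate into ATP. Complexes I and II pass electrons to ubiquinone, complex III passes them to cytochrome c and complex IV to oxygen, while complexes I, III and IV pump protons that drive the ATP synthase, complex V. Complex II is encoded by nuclear genes alone, and each of the others joins nuclear subunits to subunits encoded in mitochondrial DNA. Hepatocytes are rich in mitochondria and rely on this route for gluconeogenesis, urea synthesis and fatty acid oxidation.

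Both targeted genes were low in every KO library. H3f3a stood at 59.9 to 63.7 CPM (reads of a gene scaled to a common, TMM-adjusted library size) in the 6 controls and at 16.0 to 19.0 CPM in KO. H3f3b stood at 136 to 204 CPM in the controls and at 39.8 to 56.7 CPM in KO. Total counts ran from 14998426 in KO 1 to 26096141 in MCS 1, and the median count of a member in a library from 1758 to 3264. KO 1, the shallowest library, stood apart from the other KO livers in the OXPHOS genes, although H3f3a and H3f3b were as low in it as in the rest. The 82 members took 1.28% of all counts in KO 1 and 0.966%, 1.01% and 0.976% in KO 2 to 4, against 1.20%, 1.29% and 1.26% in WT Cre 1 to 3 and 1.34%, 1.32% and 1.20% in MCS 1 to 3. Counts of members against the 6 controls, by complex and by arm, are therefore given with and without KO 1. Most single-gene values, and the counts of assembly factors and cell type markers, are given only with KO 1 included. The labels name no batch.

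Subunits of every complex were lower in H3.3 KO liver than in the 6 controls. Of the 82 members, 58 were lower at an adjusted p under 0.05 and 3 were higher, beside 16.6% and 19.7% of the 22449 genes tested. Without the 3 processed pseudogenes, 57 of 79 were lower and 3 higher. The median log2 fold change was -0.44 over the members and 0.00 over all genes. Among the 5480 genes with a mean of 20 CPM or more in the controls, the range of 76 of the 82 members, 30.7% were lower and 13.2% were higher. The falls were moderate. Only Cox7b and Ndufa2 also passed the fold threshold of the study (log2 fold change under -1, met by 5.79% of genes). Of the 3 higher members, Ndufa4l2 and Cox7a1 passed it in the other direction (12.9% of genes). Cox6b2, counted with them, reached the count minimum only through KO, so that its call is no evidence of a rise. All 4 KO livers were below all 6 controls for 25 members, beside 12.0% of all genes, and above them for 3 (Cox6b2 among them), beside 12.5%.

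Lower members were found in each complex. By complex, 24 of 39 members were lower in complex I (median log2 fold change -0.35), 3 of 4 in complex II (-0.73), 6 of 8 in complex III (-0.49), 10 of 14 in complex IV (-0.41) and 15 of 17 in complex V (-0.44). Without KO 1 the counts were 33, 3, 8, 12 and 17, so that the order of the complexes by share of lower members changed, and the total was 73 of 82, which held all 58, with 3 higher, beside 18.9% and 22.0% of genes. Without KO 1, 6 members were neither lower nor higher, among them Sdhd and the copy genes Ndufb4c and Ndufs6b. Leaving out KO 2 or KO 3 instead gave 34 or 35 lower members. When library size alone was used for scaling, 30 members were lower and 5 higher, beside 9.68% and 25.1% of genes, and that scaling moved the median of all genes to 0.17 and of the members to -0.26.

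**Figure D1:**
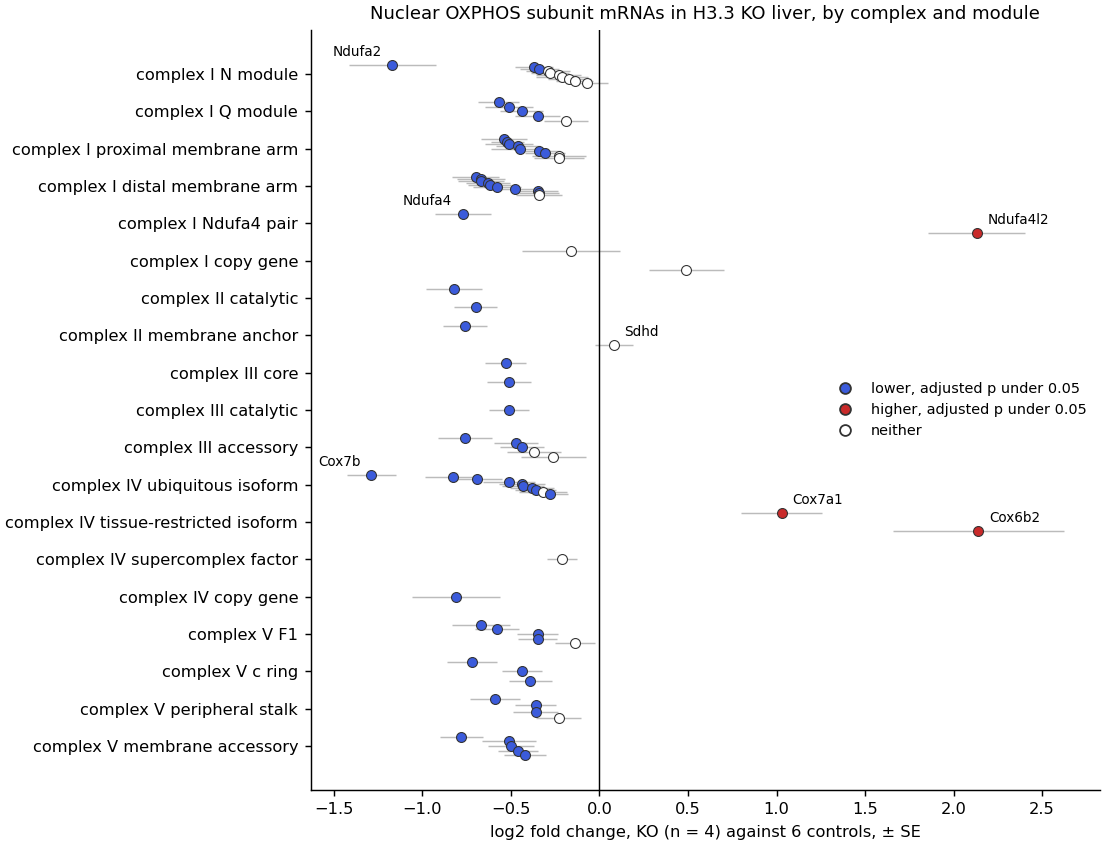
Log2 fold change of 81 of the 82 subunit genes (x axis, KO against the 6 controls, bars ± SE) by complex and module (y axis). Filled points passed an adjusted p of 0.05 (blue lower, red higher) and open points did not. The blue points lie between -1.29 (Cox7b) and -0.28, and the 3 red points lie above 1. Cox6b2, a red point, reached the count minimum only through KO.

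Within complex I, the arm in the membrane and the arm in the matrix gave different counts. Accessory subunits of the membrane arm were lower for 16 of 19 genes (median -0.48), with 9 of 10 in the distal part (median -0.60) and 7 of 9 in the proximal part (-0.45). Of the matrix arm, which holds the electron carriers, 7 of 16 were lower (median -0.28). They were 4 of 6 in the Q module, where ubiquinone is reduced, and 3 of 10 in the N module, where NADH is oxidised. Without KO 1 these became 19 of 19 in the membrane arm and 13 of 16 in the matrix arm, and the difference between the arms was not tested.

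Ndufa2, an accessory subunit of the N module, had the largest fall in complex I. It was at 62.4, 74.0 and 70.8 CPM in WT Cre 1 to 3, at 85.6, 82.6 and 69.1 in MCS 1 to 3 and at 58.0, 23.0, 26.3 and 24.8 in KO 1 to 4. All KO livers were below all controls, but KO 1 lay much closer to the controls than to KO 2 to 4. The log2 fold change was -1.17 (SE 0.247, adjusted p = 0.00368) and -1.58 without KO 1. Ndufa4, which is named as a complex I subunit and is now counted with complex IV, averaged 312 ± 22.8 CPM over the controls (SD, n = 6) and 183 ± 56.2 CPM over KO (SD, n = 4). Its values in KO 1 to 4 were 266, 161, 160 and 143 CPM, all below the lowest control (283), and its log2 fold change was -0.77 (SE 0.16, adjusted p = 0.00228). Ndufb2, of the distal membrane arm, was at 41.2 to 54.9 CPM in the controls and at 39.7, 24.5, 29.2 and 29.5 CPM in KO 1 to 4 (log2 fold change -0.70, SE 0.132, adjusted p = 0.00129).

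Ndufv1 and Ndufs1, core subunits of the matrix arm, fell less. Ndufv1, which binds NADH and FMN, was at 165, 165 and 168 CPM in WT Cre, 174, 169 and 173 in MCS and 163, 118, 123 and 119 in KO 1 to 4. KO 1 was thus just under the lowest control and the other 3 were well below it (log2 fold change -0.37, SE 0.106, adjusted p = 0.0146, which was 0.0669 without KO 2 and 0.0633 without KO 3). Ndufs1, the iron-sulphur subunit beside it, was at 112 to 129 CPM in the controls and 114, 85.5, 90.7 and 78.6 CPM in KO (log2 fold change -0.34, SE 0.109, adjusted p = 0.0263), and its call was lost without KO 2, KO 3 or KO 4 (adjusted p = 0.0936, 0.0799 and 0.0852).

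The calls of Ndufa11 and Ndufs5, accessory subunits of the membrane arm and among the smallest falls that passed in complex I, were close to the threshold. Ndufa11 had a log2 fold change of -0.34 (SE 0.119, adjusted p = 0.0398), and leaving out any one of 6 libraries (WT Cre 2, MCS 1, MCS 2 and KO 2 to 4) raised the adjusted p to between 0.0643 and 0.12. Ndufs5 had a log2 fold change of -0.31 (SE 0.113, adjusted p = 0.0438) and lost its call in edgeR without any library other than WT Cre 1 and KO 1 (adjusted p = 0.057 to 0.137). Its call was lost in 16 of 18 alternatives, among them DESeq2 with all libraries kept (adjusted p = 0.0592).

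Complex II, succinate dehydrogenase, also works in the tricarboxylic acid cycle, and 3 of its 4 subunits fell together. Sdha, the flavoprotein that oxidises succinate (chr13:74322254-74350280, minus strand), was at 585, 518 and 567 CPM in WT Cre, 510, 532 and 606 in MCS and 423, 323, 306 and 308 in KO 1 to 4. Sdhb, its iron-sulphur partner (chr4:140961203-140979193, plus strand), was at 175, 182 and 173 CPM in WT Cre, 224, 225 and 237 in MCS and 158, 99.6, 102 and 99.6 in KO. Sdhc, one of the membrane anchors (chr1:171127165-171150603, minus strand), was at 204, 205 and 194 CPM in WT Cre, 219, 227 and 220 in MCS and 162, 114, 119 and 105 in KO. For all 3 genes every KO liver was below every control and KO 1 was the highest of the KO livers. The log2 fold changes were -0.70 for Sdha (SE 0.12, adjusted p = 0.000622), -0.82 for Sdhb (SE 0.158, adjusted p = 0.00139) and -0.76 for Sdhc (SE 0.124, adjusted p = 0.000454).

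Sdhd, the other membrane anchor (chr9:50596357-50603812, minus strand), did not pass the test and is named here because it was the only such member of complex II. It was at 236, 231 and 221 CPM in WT Cre, 224, 235 and 214 in MCS and 286, 245, 230 and 196 in KO 1 to 4. The KO values spread on both sides of the controls (log2 fold change 0.08, SE 0.108, adjusted p = 0.619, and -0.02 without KO 1). The quotient of Sdhd counts to the mean counts of Sdha, Sdhb and Sdhc was 0.605 to 0.767 in the controls and 1.16, 1.37, 1.31 and 1.15 in KO 1 to 4, so that the groups did not overlap and KO 1 lay with the other KO livers. This quotient, which needs no scaling, was picked after the values were seen, as were the count quotients below, and is given as a description. Per transcript length the 4 subunits were close in the controls, from 132 FPKM for Sdhb to 153 FPKM for Sdha.

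**Figure D2:**
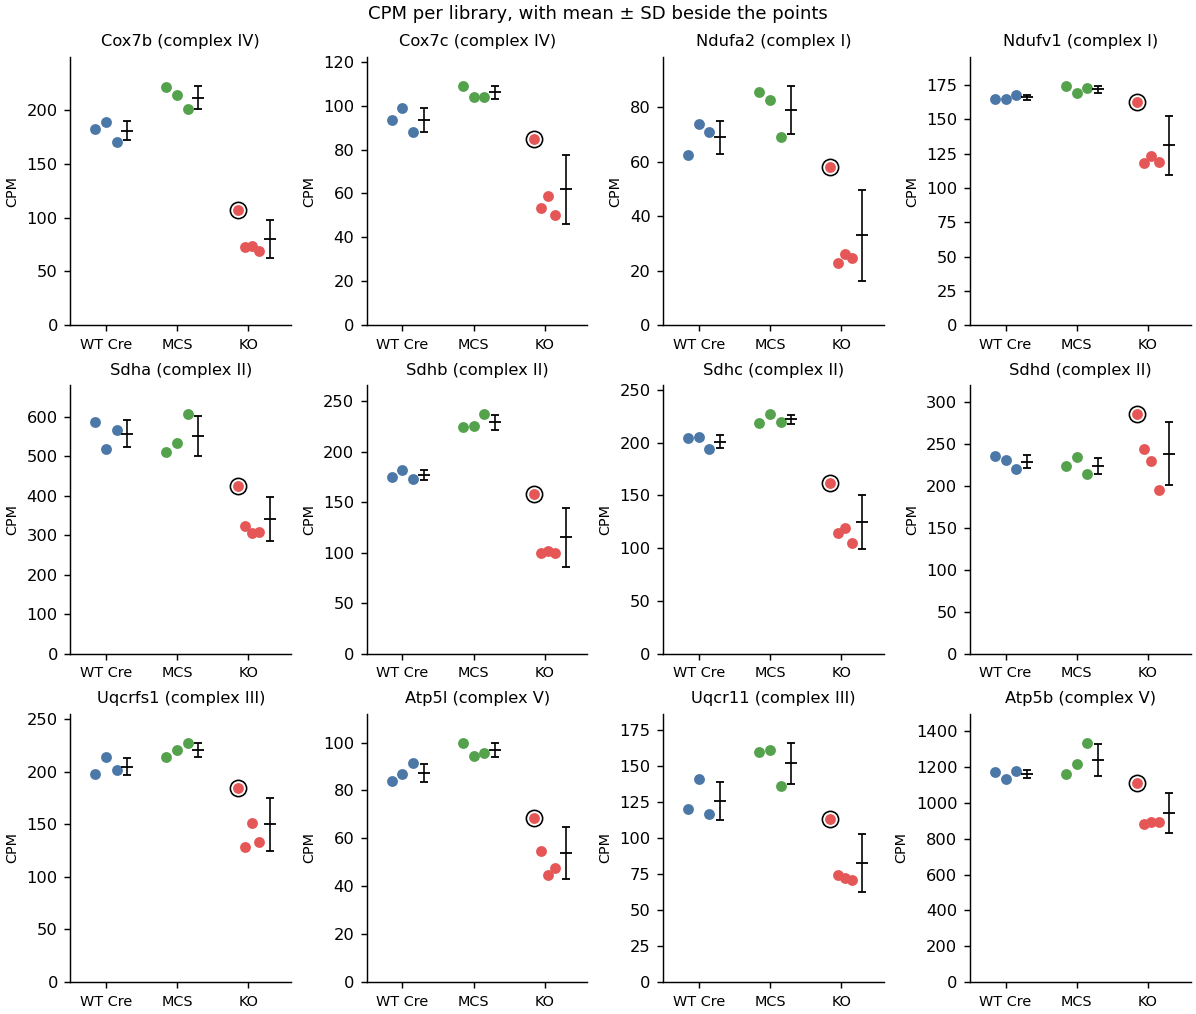
CPM (y axis, from 0) of 12 subunit genes in each library of the WT Cre (blue), MCS (green) and KO (red) groups on the x axis, with the mean ± SD of each group beside the points and KO 1 ringed. Sdha, Sdhb and Sdhc separate KO from both kinds of control, whereas the KO points of Sdhd, at 196 to 286, straddle the controls.

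In complex III, the cytochrome bc1 complex, both core proteins and the Rieske protein were lower, whereas Cyc1, the catalytic cytochrome c1 that the name rule leaves out, did not pass (log2 fold change -0.26, adjusted p = 0.0787). Uqcrc1 and Uqcrc2, the core proteins, had log2 fold changes of -0.51 (SE 0.125, adjusted p = 0.0066) and -0.53 (SE 0.117, adjusted p = 0.00334). Uqcrc2 was at 216 to 257 CPM in the controls and at 203, 142, 151 and 146 CPM in KO 1 to 4, with no overlap. Uqcrfs1, the Rieske iron-sulphur protein, was at 198 to 228 CPM in the controls and 185, 129, 151 and 133 CPM in KO, also with no overlap (log2 fold change -0.51, SE 0.113, adjusted p = 0.00358). Among the small accessory subunits, Uqcr11 fell most (log2 fold change -0.76, SE 0.152, adjusted p = 0.00184), with values of 117 to 161 CPM in the controls and 113, 74.5, 72.4 and 70.6 CPM in KO 1 to 4. Uqcrh (-0.47, adjusted p = 0.00949) and Uqcrb (-0.44, adjusted p = 0.0145) were also lower, and the call of Uqcrb was lost without KO 2 or KO 3 (adjusted p = 0.0524 and 0.0596). Uqcr10 and Uqcrq did not pass. Both were higher in KO 1 than in most controls. Uqcr10 was at 129 CPM in KO 1, 74.8 to 80.5 CPM in KO 2 to 4 and 101 to 130 CPM in the controls, and Uqcrq reached 396 CPM in KO 1 against 195 to 219 CPM in KO 2 to 4 and 272 to 358 CPM in the controls.

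The largest fall of any member was that of Cox7b, a small subunit of complex IV, cytochrome c oxidase (chrX:106015700-106022450, plus strand). It was at 183, 189 and 171 CPM in WT Cre, 222, 214 and 201 in MCS and 107, 73.0, 73.5 and 68.9 in KO 1 to 4. Every KO liver, KO 1 included, was far below the lowest control. The log2 fold change was -1.29 (SE 0.138, adjusted p = 2.29e-05). Counts of Cox7b relative to those of Cox7c, another small subunit, were 1.91 to 2.05 in the controls and 1.26, 1.37, 1.25 and 1.37 in KO 1 to 4. Relative to Cox5a, Cox7b counts were 1.36 to 1.66 in the controls and 0.82, 0.699, 0.658 and 0.707 in KO, where KO 1 was the highest KO liver. Neither quotient overlapped between the groups. Cox7c itself had a log2 fold change of -0.69 (SE 0.14, adjusted p = 0.00194).

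Other ubiquitous complex IV subunits fell less. Cox6c was at 164 to 221 CPM in the controls and 153, 89.9, 101 and 90.4 CPM in KO (log2 fold change -0.83, SE 0.157, adjusted p = 0.00127). Its processed copy Cox6c2, which GENCODE lists as a pseudogene, averaged 2.16 ± 0.319 CPM over the controls (SD, n = 6) and 1.26 ± 0.505 CPM over KO (SD, n = 4) (log2 fold change -0.81, adjusted p = 0.0216). Reads of the near-identical pair could have been shared between them, so that the value of Cox6c2 is uncertain, and its call was lost without KO 2, KO 3 or KO 4 (adjusted p = 0.0568 to 0.0776). Cox4i1 and Cox5a, which surround the catalytic core early in assembly, had log2 fold changes of -0.38 (adjusted p = 0.0285) and -0.28 (adjusted p = 0.0445). The call of Cox4i1 was lost without MCS 1, MCS 2, KO 2, KO 3 or KO 4 (adjusted p = 0.0595 to 0.112), and that of Cox5a without any library other than WT Cre 1 and KO 1 (0.0554 to 0.134). Cox8a and the supercomplex factor Cox7a2l did not pass.

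The 3 members counted as higher were scarce paralogues of abundant subunits. Ndufa4l2, a paralogue of Ndufa4 known as a target of hypoxia-inducible factor (chr10:127514967-127517154, plus strand), was at 1.75, 1.43 and 0.476 CPM in WT Cre, 1.59, 1.43 and 0.838 in MCS and 4.63, 5.46, 6.03 and 5.85 in KO 1 to 4. Cox7a1, the heart and muscle form of Cox7a2 (chr7:30184144-30186078, plus strand), was at 1.58, 0.998 and 1.19 CPM in WT Cre, 1.18, 1.65 and 1.01 in MCS and 1.76, 2.33, 3.46 and 2.79 in KO. Cox6b2, the testis form of Cox6b1 (chr7:4751792-4753094, minus strand), was at 0.0834, 0.26 and 0.397 CPM in WT Cre, 0.163, 0.268 and 0.0 in MCS and 0.521, 1.03, 1.35 and 0.688 in KO. All KO livers were above all controls for Ndufa4l2 and Cox7a1, and KO 1 was the lowest KO liver in both. Cox6b2 had the same order, but it reached the count minimum only through KO, so that this order is no evidence of a rise. The log2 fold changes were 2.13 for Ndufa4l2 (SE 0.272, adjusted p = 8.13e-05) and 1.03 for Cox7a1 (SE 0.228, adjusted p = 0.00346). Cox6b2, for which no test is given, rests on 0 to 10 counts in a control library and 8 to 32 in a KO library.

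In KO these paralogues remained a small fraction of their pairs. Counts of Ndufa4l2 were 0.163% to 0.62% of those of Ndufa4 in the controls and 1.74%, 3.39%, 3.76% and 4.08% in KO 1 to 4. Counts of Cox7a1 were 0.609% to 1.21% of those of Cox7a2 in the controls and 1.35% to 3.29% in KO. Counts of Cox6b2 were at most 0.167% of those of Cox6b1 in the controls and 0.21% to 0.793% in KO. Markers of several cell types other than hepatocytes rose in the same livers, with the values given below, and their part in these values was not tested.

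**Figure D3:**
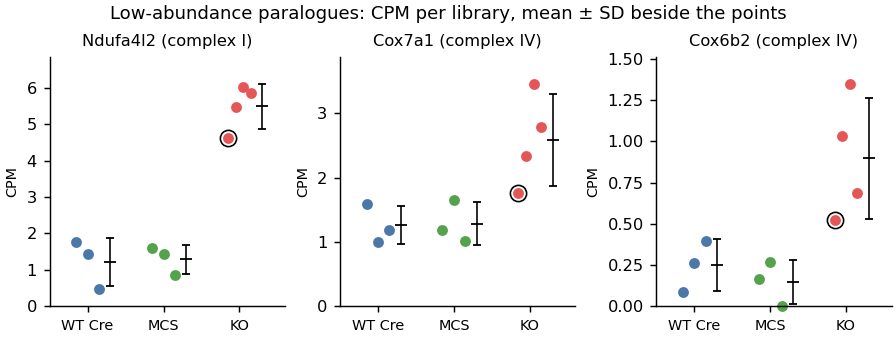
CPM (y axis, from 0) of the 3 higher members, in each library of the WT Cre, MCS and KO groups (x axis), with the mean ± SD of each group beside the points and KO 1 ringed. All 4 KO points of each gene lie above its 6 control points, at levels of 0.521 to 6.03 CPM. Cox6b2 reached the count minimum only through KO.

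Complex V, the ATP synthase, was lower in nearly all its parts against the 6 controls (15 of 17 members). Fewer passed against WT Cre alone (7 of 17) or with scaling by library size alone (6 of 17), and 16 of 17 passed against MCS. The F1 subunits Atp5a1 (alpha) and Atp5b (beta, catalytic) were among the most abundant members. Atp5b was at 1171, 1135 and 1178 CPM in WT Cre, 1159, 1220 and 1337 in MCS and 1112, 882, 893 and 892 in KO 1 to 4, where KO 1 lay just under the lowest control. The log2 fold changes were -0.35 for Atp5b (SE 0.11, adjusted p = 0.0259) and -0.35 for Atp5a1 (SE 0.117, adjusted p = 0.0315). Both calls were lost without KO 2, KO 3 or KO 4 (adjusted p = 0.0715 to 0.103), and that of Atp5a1 also without any MCS library (0.0532 to 0.0618). The small F1 subunit epsilon, Atp5e, fell by 0.67 on the log2 scale (SE 0.164, adjusted p = 0.00648).

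The 3 nuclear genes for the identical subunit c of the membrane ring were all lower. Atp5g3 was at 321 to 402 CPM in the controls and 293, 179, 216 and 191 CPM in KO 1 to 4, without overlap (log2 fold change -0.72, SE 0.141, adjusted p = 0.00153). Atp5g2 (-0.44, adjusted p = 0.00833) and Atp5g1 (-0.39, adjusted p = 0.0212) fell less, and the call of Atp5g1 was lost without KO 2, KO 3 or KO 4 (adjusted p = 0.0621 to 0.0792). The call of Atp5g2 was lost in edgeR with scaling by library size alone (adjusted p = 0.0785) and in limma on log2(FPKM + 1) (0.125). All 5 accessory subunits of the membrane part were lower (median -0.50), led by Atp5l, subunit g, which was at 83.9, 86.9 and 91.3 CPM in WT Cre, 100, 94.6 and 95.8 in MCS and 68.5, 54.7, 44.8 and 47.4 in KO. No KO value of Atp5l reached a control value (log2 fold change -0.78, SE 0.12, adjusted p = 0.00032). Of the peripheral stalk 3 of 4 were lower. Atp5h, the stalk subunit d (-0.36, adjusted p = 0.0403), lost its call without WT Cre 2, any MCS library or KO 2 to 4 (adjusted p = 0.0568 to 0.131). Atp5d and Atp5o did not pass.

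**Figure D4:**
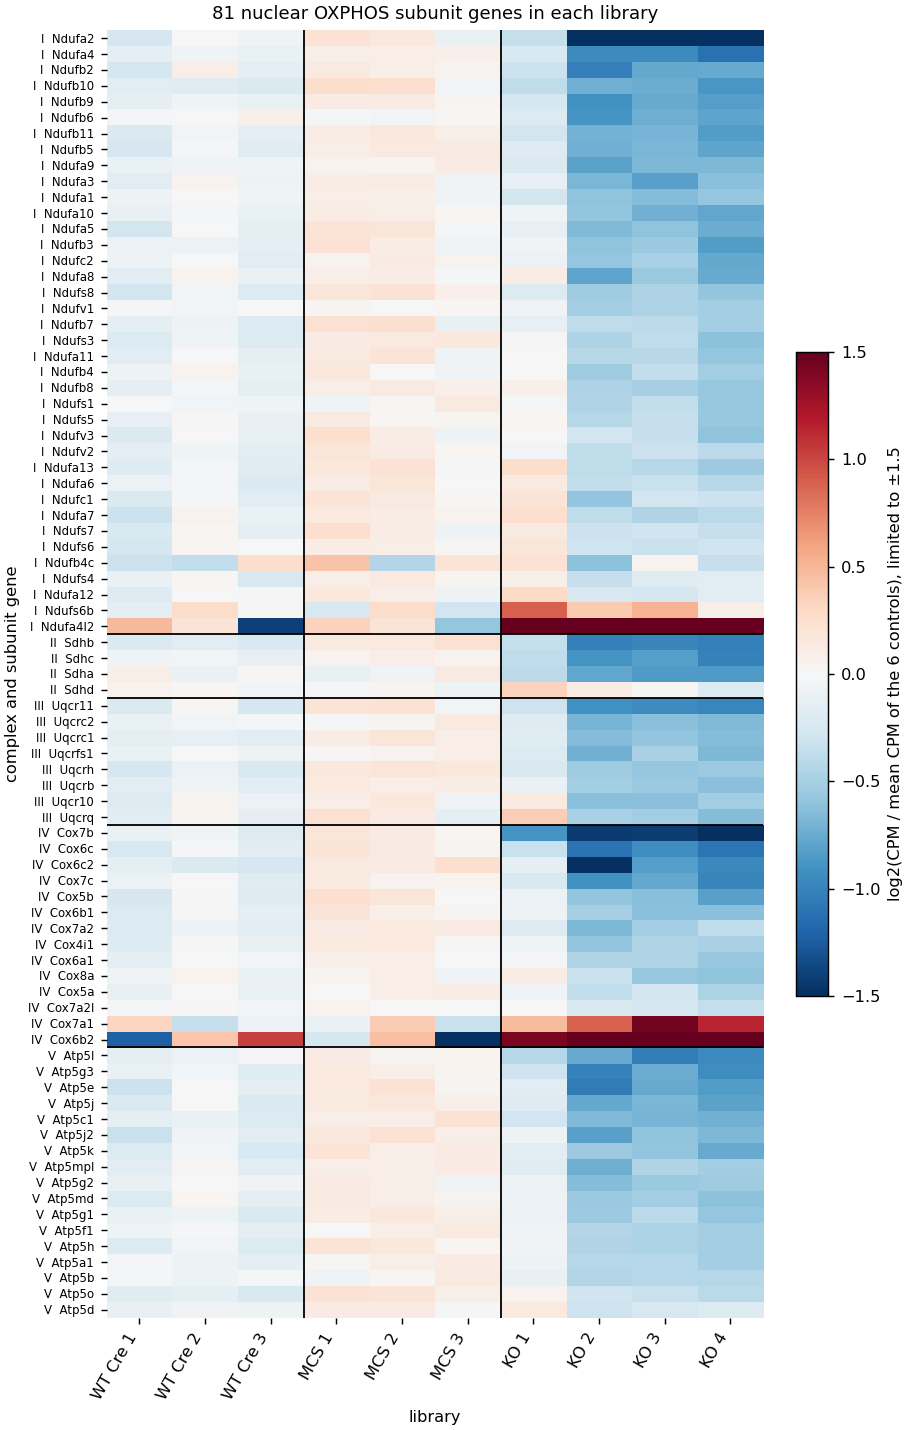
Level of 81 of the 82 genes (rows, by complex and then by fold change) in each library (columns) as log2 of CPM over the mean CPM of the 6 controls, with the colour scale limited to ±1.5 and a value of 0 CPM drawn at the lower limit. KO 2 to 4 are blue for most genes, and KO 1 is near white for many of them.

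KO 1 differed from the other KO livers. In KO 2, 3 and 4, 76, 74 and 74 members were below all 6 controls, beside 27.3%, 26.1% and 29.6% of all genes. KO 2 to 4 together were below all controls for 73, beside 18%. In KO 1 alone they were 25, beside 25.3% of all genes, a share near that of all genes. A further 44 members in KO 1 lay within the range of the controls, beside 50% of all genes, and 13 lay above it, beside 24.7%. KO 1 was the highest of the 4 KO livers for 78 members, beside 30.9% of all genes. The summed CPM of the 82 members was 12307 to 14334 in the controls, 12485 in KO 1 and 8778 to 9188 in KO 2 to 4. KO 1 was below all controls most often in complex II (3 of 4) and complex III (4 of 8), and for 10 of 39 members of complex I, 3 of 14 of complex IV and 5 of 17 of complex V.

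Against each kind of control alone, fewer members passed with WT Cre than with MCS. Against WT Cre, which shares the virus and Cre with KO, 29 members were lower and 3 higher, beside 13.1% and 15.3% of genes (median -0.30). Against MCS, which shares the floxed alleles, 61 were lower and 3 higher, beside 14.8% and 17.3% of genes (median -0.52). For complexes I to V in order, 12 of 39, 3 of 4, 4 of 8, 3 of 14 and 7 of 17 members were lower against WT Cre. The same complexes had 26, 3, 6, 10 and 16 lower members against MCS. Sdha had nearly the same log2 fold change against both (-0.71 and -0.69), whereas Sdhb had -0.62 against WT Cre and -0.99 against MCS. The count against WT Cre rested on single libraries. It was 66 without KO 1 (with 3 higher, beside 17.4% and 19.5% of genes), 17 without KO 2, 17 without KO 3, 19 without WT Cre 1, 11 without WT Cre 2 (with 1 higher) and 15 without WT Cre 3. Both comparisons share the KO livers.

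The direct comparison of WT Cre with MCS, which is also the test of whether the effects against the 2 kinds of control differ, called 0 of 82 members in edgeR and 0 in DESeq2, beside 0.927% of genes called by edgeR. At an unadjusted p under 0.05 there were 7 members, beside 10.7% of genes. The log2 fold change was below 0 for 77 of 82 members and for 11147 of 22449 genes, with a member median of -0.20. TMM factors were 0.977 to 1.02 in WT Cre and 0.858 to 0.942 in MCS. By share of all counts, which uses no such factor, the WT Cre (1.20% to 1.29%) and MCS (1.20% to 1.34%) livers overlapped.

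Levels within a complex were not equal even in the controls. Per transcript length, complex I members without copies and restricted paralogues ran from 36.4 FPKM (Ndufs1) to 540 FPKM (Ndufa4), complex III from 101 (Uqcrc2) to 661 FPKM (Uqcrq), complex IV from 73.5 (Cox7a2l) to 460 FPKM (Cox6b1) and complex V from 87.1 (Atp5g2) to 554 FPKM (Atp5b). Complex II spanned only 1.16-fold. The deposited FPKM of Cox4i1 was blank in all libraries and is not in that range.

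Subunits encoded in mitochondrial DNA were lower as well. Of 13, 10 were lower (median -0.63), beside 16.6% of all genes, and 10 also without KO 1, beside 18.9%. The lowest adjusted p belonged to mt-Co3 (log2 fold change -1.17), mt-Atp6 (-1.28), mt-Nd3 (-0.92) and mt-Co2 (-0.89). Their summed CPM was 56515 to 68692 in the controls and 44943 to 49310 in KO, and here KO 1, at 49310, lay with the other KO livers. Poly(A) selection and nuclear copies of mitochondrial DNA limit what these counts measure.

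Factors that build the complexes gave mixed counts. Over all genes 16.6% were lower and 19.7% higher, and among genes with 20 CPM or more in the controls 30.7% and 13.2%. The shares of lower factors for complexes III and IV were near these and are not read as a result about the factors. For complex I, 10 of 15 assembly factors were lower, among them Ndufaf7 (-0.91), Ndufaf8 (-1.26), Foxred1 (-0.64) and Acad9 (-0.79). For complex II, Sdhaf3 (-0.66) and Sdhaf4 (-0.69) were lower, 2 of 4, and for complex III only Bcs1l (-0.87), which inserts the Rieske protein, 1 of 6. For complex IV 7 of 21 were lower and 1 higher, led by Cox20 (-1.36), which helps to mature the mitochondrially encoded subunit COX2, Taco1 (-0.65) and the higher Cox19 (0.52). For complex V 3 of 5 were lower, Atpaf2 (-0.39), Fmc1 (-0.56) and Atpaf1 (-0.34). Among OXPHOS genes that the name rule leaves out, 1 of 5 was lower and 1 higher. They were Ndufb1-ps (-0.40) and Atpif1, the inhibitor of ATP synthase hydrolysis, at 10.9 to 14.1 CPM in the controls and 26.5, 27.6, 33 and 29.7 CPM in KO 1 to 4 (log2 fold change 1.23, SE 0.0996, adjusted p = 2.84e-06). Cycs, cytochrome c (-0.20), did not pass, nor did Cyc1.

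Other mitochondrial lists fell less often. Over all genes 16.6% were lower and 19.7% higher, and among genes with 20 CPM or more in the controls 30.7% and 13.2%. With KO 1 included, the shares of lower genes in the ribosomal, import and regulator lists were near 30.7%, so that these counts are not read as a result about the lists. Of 75 mitochondrial ribosomal protein genes 24 were lower and 1 higher (median -0.22), with Mrps25 at -0.98 and Mrpl15 at 0.65. Of 23 import genes 6 were lower and 1 higher (median -0.10), with Timm9 at -0.74. Of 14 tricarboxylic acid cycle enzymes 6 were lower and 1 higher (median -0.19), with Idh3b at -0.58 and Suclg1 at -0.56. Of 15 regulators of mitochondrial biogenesis 5 were lower and 1 higher (median -0.10). They included the deacetylase Sirt3 (-0.89, SE 0.142), the coactivator Ppargc1a, at 5.77 to 10.1 CPM in the controls and 4.95, 4.39, 4.0 and 3.1 CPM in KO (-1.0, SE 0.177), Gabpa, which encodes an ETS factor (-0.29), and the nuclear receptor Esrra, which was higher (0.76, SE 0.145). With KO 1 left out, 39 of 75 ribosomal, 8 of 23 import, 7 of 14 cycle and 5 of 15 regulator genes were lower, beside 18.9% of all genes. Higher genes were then 1, 0, 0 and 2, beside 22.0%. No share for genes with 20 CPM or more was taken without KO 1. The differences between these lists and the members were not tested.

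Markers of cell types moved in the same livers, where 16.6% of all genes were lower and 19.7% higher against the 6 controls. Hepatocyte markers were lower for 8 of 10 genes (9 of 10 lower against MCS and 4 of 10 against WT Cre), and their summed CPM was 119488 to 162424 in the controls and 88309 to 105040 in KO. KO 1, with 105040, was below all controls in this sum, of which Alb alone made up 75941 CPM. The OXPHOS sum of KO 1 lay within the range of the controls. Kupffer cell and macrophage markers were higher for 8 of 8 (summed CPM 217 to 411 in the controls and 508 to 1111 in KO) and stellate cell and fibroblast markers for 7 of 8 (180 to 221 and 449 to 719). Lymphocyte markers were higher for 6 of 8 (8.44 to 13.8 and 19.5 to 51.2), neutrophil markers for 4 of 5 (3.42 to 13.1 and 6.19 to 28.4), cell cycle genes for 7 of 8 (32.1 to 41.7 and 54.1 to 73.2), endothelial markers for 1 of 8 (189 to 244 and 207 to 369) and cholangiocyte markers for 1 of 7 (50 to 80.6 and 71.1 to 88.2). In KO 1 the Kupffer cell sum was 508 and the lymphocyte sum 19.5, the lowest of the KO livers. At least 1 library had 0 counts for 1 cholangiocyte and 1 neutrophil marker, and no other marker was at 0. The part of these cells in the change of the OXPHOS genes was not tested.

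**Figure D5:**
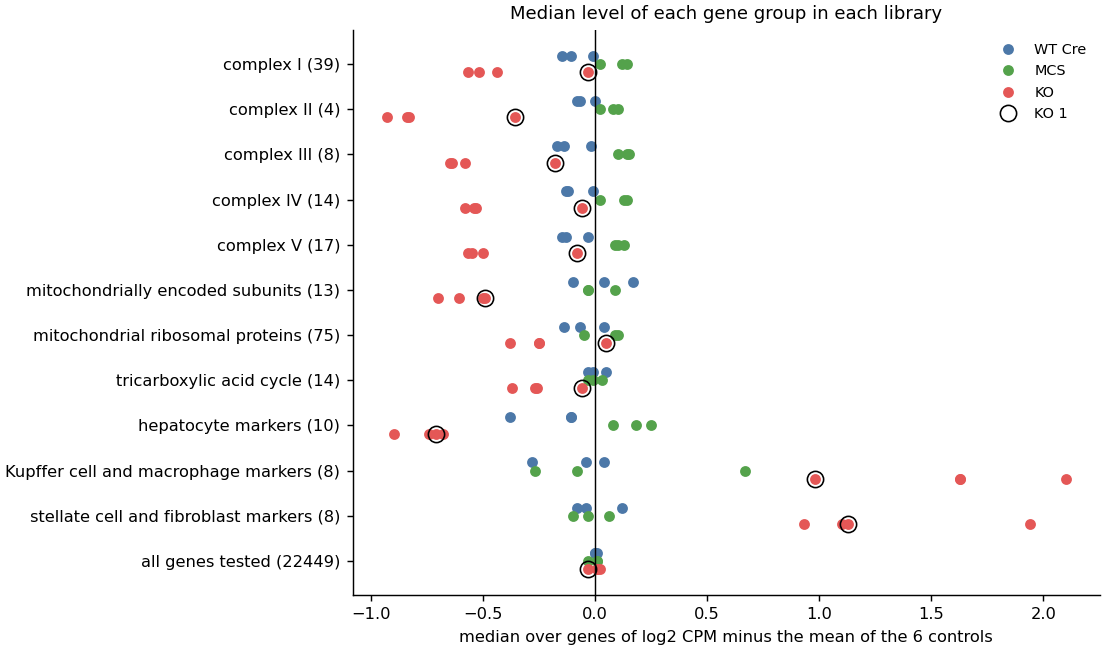
Median over the genes of each group (y axis, number of genes in brackets) of log2 CPM minus the mean of the 6 controls (x axis), with a point for each WT Cre, MCS and KO library and KO 1 ringed. For complex I, KO 1 lies at -0.03 and KO 2 to 4 between -0.57 and -0.44. For the hepatocyte markers KO 1 lies at -0.71, among the other KO livers.

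The 250 bases before the RefSeq starts of the members were searched for 3 short motifs of factors known to act on respiratory genes, on both strands. RefSeq windows (GRCm38.p6) were found for 65 of the 82 members. In 57 of them the window ran up to or into a transcript of the gene, and Sdhd was not among these. Its window stops at 50603850, short of the GENCODE start of this minus-strand gene at 50603812. The NRF1 core GCATGCGC was present in 8 of them, 12.3%, beside 2.56% of 27025 genes. The ETS core CCGGAAG was present in 12, 18.5%, beside 7.83% of genes, and the YY1 core AAGATGGC in 1, 1.54%, beside 1.83%. Of the members with a window, 7 of the 46 that fell and 1 of the 17 that did not pass held the NRF1 core, and 11 and 1 held the ETS core. No share was taken for genes as abundant as the members, and a part of these motifs in the falls was not tested. A match of letters is a description and not a binding site. The windows of the member with the largest fall, Cox7b (chrX:106015450-106015699, plus strand), and of the complex II subunit that did not fall, Sdhd (chr9:50603850-50604099, minus strand), are printed 5′ to 3′ with matches in capitals.
Cox7b: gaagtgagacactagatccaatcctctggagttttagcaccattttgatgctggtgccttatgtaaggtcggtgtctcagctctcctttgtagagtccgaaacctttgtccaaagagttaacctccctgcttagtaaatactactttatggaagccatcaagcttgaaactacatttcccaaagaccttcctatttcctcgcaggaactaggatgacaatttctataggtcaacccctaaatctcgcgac
Sdhd: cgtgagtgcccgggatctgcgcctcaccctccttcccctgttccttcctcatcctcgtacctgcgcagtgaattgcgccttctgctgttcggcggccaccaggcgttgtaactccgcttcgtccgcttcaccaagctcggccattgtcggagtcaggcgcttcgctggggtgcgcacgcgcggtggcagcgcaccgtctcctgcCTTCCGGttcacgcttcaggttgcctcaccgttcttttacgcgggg
The Cox7b window held none of the 3 motifs and that of Sdhd held the reverse complement of the ETS core once. The window of Sdhb held the NRF1 core once, that of Sdha held none of the 3, and no window of Sdhc was analysed.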

How the data were processed

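RNA-seq of 10 livers (3 WT Cre, 3 MCS and 4 KO) was analysed from 2 deposited tables. The authors trimmed reads and aligned them with STAR to mm10. The paper's methods name HOMER for counting, whereas the submitters' processing notes name HTSeq and Cufflinks. The first table holds raw read counts per gene as deposited by the authors, without normalization, and the second holds FPKM values deposited by the authors, with 11 blank cells for 2 members. The library kit keeps strand, but the strand setting of the counting was not given in the sources used here. Of the members, 39 overlap another annotated gene and 13 do so on the same strand, so that their reads could be shared. The label for genotype names HIRA in the floxed animals, whereas titles and series text name H3f3a and H3f3b. Groups follow the titles, and Hira did not pass the test (adjusted p = 0.477).

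Genes with at least 10 counts in all were tested (22449) with edgeR 4.0.16 in R 4.3.3, by its quasi-likelihood test, with TMM, robust dispersion and no covariates, as 2 groups against all controls and as 3 groups against each kind. P-values were adjusted by Benjamini-Hochberg over all genes tested, and each SE was taken from the fold change and its F statistic. CPM uses TMM-adjusted library sizes, and log2 CPM a prior count of 2. FPKM served only for levels and as an alternative, with blank cells read as 0 and Cox4i1, blank in every library, left out. DESeq2 1.42.0, limma 3.58.1 on log2(FPKM + 1) and log2(FPKM + 0.1), other scalings and filters, a replicate block and leaving out each library were alternatives. The steps were tested on simulated data. Replicates differed by more than sampling noise (chi-square over degrees of freedom, 10.3 to 96.7). The labels do not say that livers were pooled, and p-values measure the spread between these samples. Coordinates are from GENCODE M21 (mm10), and symbols are those of the table.

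The members and gene lists were chosen with earlier results of these data known. Named members were those past the fold threshold, the 3 lowest and 3 highest passing members of each complex, preset catalytic and core subunits, the 3 subunit c genes and tissue-restricted paralogues, in all 33, of which 1 is not reported here and is not drawn. Up to 4 genes of a list were named, by lowest adjusted p. Exceptions such as Sdhd, Cox7c and the members that did not pass were named after their values were seen.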

Additional observations from a re-analysis of the deposited data

Results flagged for a closer look

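In 16 of 38 sets of 4 KO values, 1 sample lay farther from the rest than the 95% limit of Dixon's test, which chance passes in about 1 of 20 sets. All 16 were the high value of KO 1, and the sets are not independent of each other. For single genes, KO 1 had 58.0 CPM of Ndufa2, 266 of Ndufa4, 163 of Ndufv1, 423 of Sdha, 158 of Sdhb, 231 of Uqcrc1, 203 of Uqcrc2, 113 of Uqcr11, 128 of Uqcrh, 107 of Cox7b, 1112 of Atp5b and 183 of Atp5h. The summed CPM in KO 1 was 3613 for complex I, 1553 for complex III, 1847 for complex IV and 4442 for complex V. In KO 2 to 4 these sums were 2506 to 2627, 1013 to 1061, 1276 to 1342 and 3275 to 3400. H3f3a, at 16.0 CPM, and H3f3b, at 39.8 CPM, were at or below the levels of the other KO livers in KO 1, which was also the library with the fewest counts (14998426). Neither depth nor any other property of KO 1 was tested as a source of the difference.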

How the results depend on the processing

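Of the 33 named members, 19 stayed on the same side of the threshold in KO against the 6 controls under every alternative run, and 14 did not. No named member changed sign under any alternative run. Scaling by library size alone lost the calls of 13 named members. They were Ndufa11, Ndufs1, Ndufs5, Ndufv1, Uqcrb, Cox4i1, Cox5a, Cox6c2, Atp5a1, Atp5b, Atp5g1, Atp5g2 and Atp5h. On each FPKM scale 10 calls were lost. With scaling by library size alone, 30 members were lower and 5 higher against all controls, and 32 and 6 against MCS. On log2(FPKM + 1) and on log2(FPKM + 0.1) 31 were lower and 5 higher against all controls, and 23 and 5 against MCS. The members added as higher included Ndufs6b in each of these, and Sdhd against MCS. Replicate numbers were treated as names only. Deviations of same-numbered libraries had correlations of -0.125 to 0.216. Libraries with different numbers were not compared, so that these values cannot tell whether the numbers mark a pairing. With the replicate block 37 members were lower against all controls. The cause was not tested. Leaving out 1 library at a time gave 34 to 73 lower and 3 higher members against all controls, 11 to 66 lower and 1 to 3 higher against WT Cre, 45 to 75 lower and 2 to 3 higher against MCS, and 0 to 1 lower for WT Cre against MCS. Members past the fold threshold were 2 to 6 lower and 2 to 3 higher, and the 6 without KO 1 were Ndufa2, Cox7b, Cox6c2, Cox6c, Ndufa4 and Sdhb. DESeq2 called 55 lower and 3 higher members against all controls. Depth limits Cox6b2 and the 3 copy genes most, which had 112 to 401 counts in all.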
